A study of Mus musculus with 8 samples.

Results

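Potassium channel genes were taken as all probe sets of the value table with a single gene symbol beginning with Kcn, followed by letters and a number. This gave 90 probe sets for 87 genes, of 19938 genes in all. For the 3 genes with 2 probe sets each, Kcna2, Kcnh8 and Kcnma1, the probe set with the higher mean over the 8 arrays was used. The symbols fall into 20 stems, which were sorted into 6 roles: 25 voltage-gated alpha subunits, 10 electrically silent voltage-gated subunits, 15 inward rectifiers, 14 two-pore channels, 8 calcium- or sodium-activated channels and 15 auxiliary subunits.

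Potassium channels let potassium leave the cell and set the resting membrane potential. In muscle precursors, the membrane hyperpolarizes as myoblasts begin to differentiate, and the inward rectifier Kcnj2 and the ether-a-go-go channel Kcnh1 are known for that step. Hyperpolarization opens a path for calcium entry, which acts through calcineurin on NFAT and MEF2 factors and on Myog. Calcium-activated channels of the Kcnn group couple intracellular calcium to the membrane potential, and Kcnn3 is known from immature and denervated muscle.

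RNA came from primary myoblasts grown from satellite cells of the gastrocnemius muscle of C57bl/6 mice aged 2 to 3 weeks, cultured on Matrigel in proliferation medium. One group of 4 arrays was labelled WT. The other group of 4 was labelled Runx1f/f, a genotype that the treatment text also calls KO. The labels name no Cre or other means of deleting the floxed Runx1 allele and do not say whether replicates came from separate animals, so p-values measure only the spread between these samples. Runx1 read 9.89 to 10.27 (log2 intensity) in replicates 2 and 3 of both labels and 9.15 to 9.44 in replicates 1 and 4, so it did not separate the labels. On average it could not have done so, because the deposited means of the labels are equal in every row, as described next.

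The 8 arrays had medians of 4.39 to 4.41 and correlated by 0.9879 to 0.9972 over all 35399 rows. In every row, 3 column sets, namely the 4 WT columns, Runx1f/f 1 with 2 and Runx1f/f 3 with 4, shared 1 mean to within 7.5e-05. The Runx1f/f values of a gene are therefore mirror images around a shared mean, 1 against 2 and 3 against 4, and the deposited values cannot differ between the labelled genotypes in any gene. The defining myoblast markers Pax7, Myf5, Myod1, Des and Cdh15 averaged 7.07, 8.11, 11.35, 11.31 and 10.13. The leukocyte, endothelial and Schwann cell or neural lists had gene means of 3.28 to 4.596, 3.32 to 3.64 and 3.36 to 3.63. For orientation on dim values, the Y-linked Eif2s3y, Kdm5d and Uty averaged 3.4996, 3.51 and 3.52 on arrays where Xist read 9.37 to 9.71.

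Most potassium channel probe sets were dim. Only 4 of the 87 genes, Kcnn3, Kcnf1, Kcnn4 and Kcnk13, had a mean over the 8 arrays above 5, which is 4.6% of them against 44.9% of all genes. A further 9 genes averaged between 4 and 5, namely Kcnh5, Kcnk5, Kcnj11, Kcnh2, Kcne3, Kcna2, Kcnma1, Kcnip3 and Kcnj2. The other 74 averaged below 4, and the median over the 87 genes was 3.55, against 4.43 over all genes. Other ion channel families were also mostly below 5: 2 of 11 sodium channel genes, 4 of 24 voltage-gated calcium channel genes and 2 of 20 transient receptor potential channel genes lay above it. Intensities of different probe sets are not amounts of RNA, so these counts describe signal only, and a dim probe set has little room to show a fall.

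**Figure D1:**
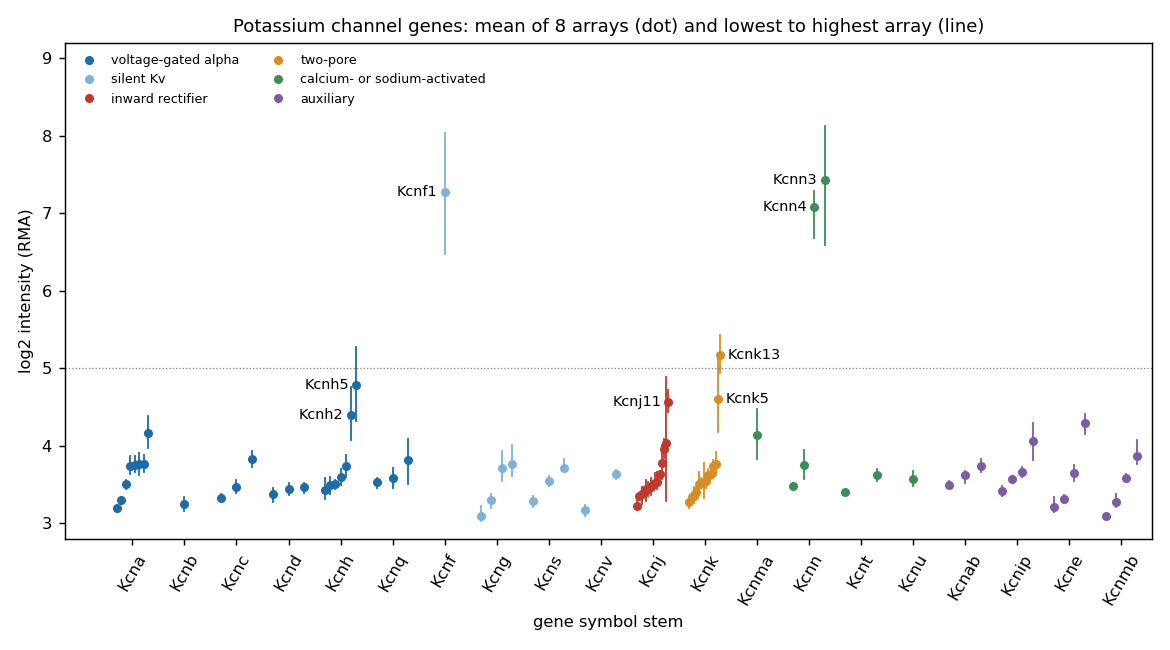
Log2 intensity of the 87 potassium channel genes by symbol stem, with a dot for the mean of the 8 arrays, a line from the lowest to the highest array and colours for the 6 roles. Only Kcnn3, Kcnf1, Kcnn4 and Kcnk13 lie above the dotted line at 5, and most other dots sit below 4.

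Between the labelled genotypes, limma called 0 of the 87 potassium channel genes at an adjusted p under 0.05, with 0 at an unadjusted p under 0.05 and a smallest unadjusted p of 0.9999. Over all genes, 0% were called. The largest difference among the 87 genes was 5e-06 on the log2 scale. The equal means of the column sets fixed this outcome for every gene, so it does not measure whether potassium channel genes depend on Runx1.

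Because of the equal means, genes could vary only between arrays of the same label. Replicates 2 and 3 of both labels were set against replicates 1 and 4, which gives 4 arrays a side. These are not independent: Runx1f/f 1 mirrors 2 and Runx1f/f 3 mirrors 4, and each pair has 1 array on either side. The SDs given below therefore describe only the values on a side. This split was proposed with the values of these arrays already known, and the 87 genes take part in it, so differences along it are given with no test. A gene is counted as higher or lower where the 2 means differ by at least 1.5-fold (0.585 on the log2 scale) and the 4 arrays of one side all lie above the 4 of the other.

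By this count, 2 of 87 potassium channel genes were higher in replicates 2 and 3, Kcnn3 and Kcnh5, beside 2.16% of all genes. One gene, Kcnf1, was lower, beside 0.727% of all genes. As shares of the 87 these are 2.30% and 1.15%, near the background over all genes, so the count says nothing particular about potassium channel genes. That background is not matched for signal. Of the 4 potassium channel genes with a mean above 5, 1 was higher and 1 lower, beside 3.97% and 1.41% of all genes above 5. Of the 83 dimmer ones 1 was higher and 0 were lower, beside 0.683% and 0.173% of all genes at 5 or below. With 4 genes above 5, nothing is read from their share. The median difference was 0.00 over the 87 genes and -0.01 over all genes, and 67 of the 87 (77.0%, beside 65.2% of all genes) differed by less than 0.1 in either direction.

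**Figure D2:**
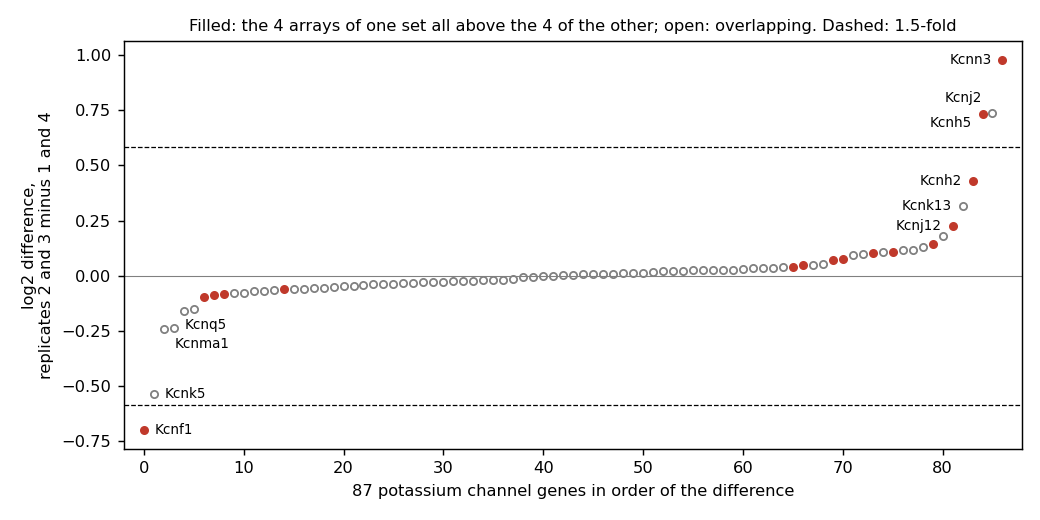
Difference in log2 intensity between replicates 2 and 3 and replicates 1 and 4 for the 87 potassium channel genes, in rising order, with filled dots where the arrays of the 2 sides do not overlap and dashed lines at 1.5-fold. Kcnn3, Kcnh5 and Kcnf1 are filled and past the lines, Kcnj2 is past the line but open, and most genes lie near 0.

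The calcium-activated channel genes Kcnn3 and Kcnn4 both averaged above 7, and only Kcnn3 was counted. Kcnn3, a small-conductance channel opened by calcium through calmodulin, had values of 7.03, 7.98, 8.12 and 6.59 on arrays WT 1 to 4, and of 6.81, 8.05, 7.52 and 7.34 on arrays Runx1f/f 1 to 4. All arrays of replicates 2 and 3 lay above all arrays of replicates 1 and 4, with Runx1f/f 3 and 4 closest to each other. The means were 7.92 ± 0.27 and 6.94 ± 0.32 (SD, n = 4), a 1.97-fold difference. It was 1.247 on the log2 scale in the WT columns and 1.24 between Runx1f/f 2 and 1, but 0.18 between Runx1f/f 3 and 4.

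Kcnn4, the intermediate-conductance channel of the same group, known from proliferating cells, did not follow Kcnn3. It had values of 7.29, 6.68, 7.08 and 7.26 on arrays WT 1 to 4, and of 7.08, 7.07, 7.17 and 6.98 on arrays Runx1f/f 1 to 4. The sides overlapped, WT 2 alone was low, and the means were 6.999 ± 0.219 and 7.152 ± 0.146 (SD, n = 4). Kcnn1 and Kcnn2, the other small-conductance channels, differed by -0.16 and -0.02. Kcnma1, the large-conductance calcium-activated channel, differed by -0.24 with its brighter probe set, where the sides overlapped. Its other probe set, at a mean of 3.32, differed by 0.02. The sodium-activated channels Kcnt1 and Kcnt2 and the sperm channel Kcnu1 averaged below 4 and differed by -0.09, 0.04 and 0.00.

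Among the electrically silent subunits, which form channels only together with other voltage-gated subunits, Kcnf1 stood alone. It had values of 7.48, 7.12, 6.47 and 8.04 on arrays WT 1 to 4, and of 7.47, 7.08, 7.03 and 7.52 on arrays Runx1f/f 1 to 4. Each array of replicates 2 and 3 was below each array of replicates 1 and 4, and the widest gap was between WT 3 and WT 4. The means were 6.93 ± 0.31 and 7.63 ± 0.27 (SD, n = 4), so replicates 1 and 4 were 1.63-fold higher. The direction was the same in the 3 column sets, with differences of -0.96, -0.39 and -0.49. Without WT 3 the difference was -0.55 and without WT 4 it was -0.56, both short of 1.5-fold. The other 9 silent subunits averaged below 4. The Kcnb group, a usual partner of silent subunits, was represented by Kcnb2 at 3.25.

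The 25 voltage-gated alpha subunits had means of 3.20 to 4.78, and 1 was counted. Kcnh5, an ether-a-go-go channel, had values of 4.31, 5.09, 5.27 and 4.45 on arrays WT 1 to 4, and of 4.44, 5.12, 5.11 and 4.45 on arrays Runx1f/f 1 to 4. The sides lay clearly apart, with little spread inside either, at 5.15 ± 0.08 and 4.41 ± 0.07 (SD, n = 4), a 1.66-fold difference. It was even across the 3 column sets, at 0.80, 0.68 and 0.65. Kcnh2, an ether-a-go-go related channel that repolarizes heart muscle, showed the same order at 4.61 ± 0.10 and 4.19 ± 0.08 (SD, n = 4). Its 1.35-fold difference was short of the threshold, although its arrays did not overlap either, and its column sets gave 0.54, 0.32 and 0.32.

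Kcnh1, the ether-a-go-go channel known from human myoblast fusion, did not show this. Its 8 arrays ran from 3.50 to 3.70 and its difference was -0.07. The shaker-type channels of the Kcna group were also flat. Kcna5 ran from 3.66 to 3.87 with a difference of 0.11 and no overlap, and Kcna2, the only one of the 8 to average above 4, differed by 0.18 with overlap. Kcnc4, which pairs with Kcne3 in skeletal muscle, ran from 3.72 to 3.94.

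**Figure D3:**
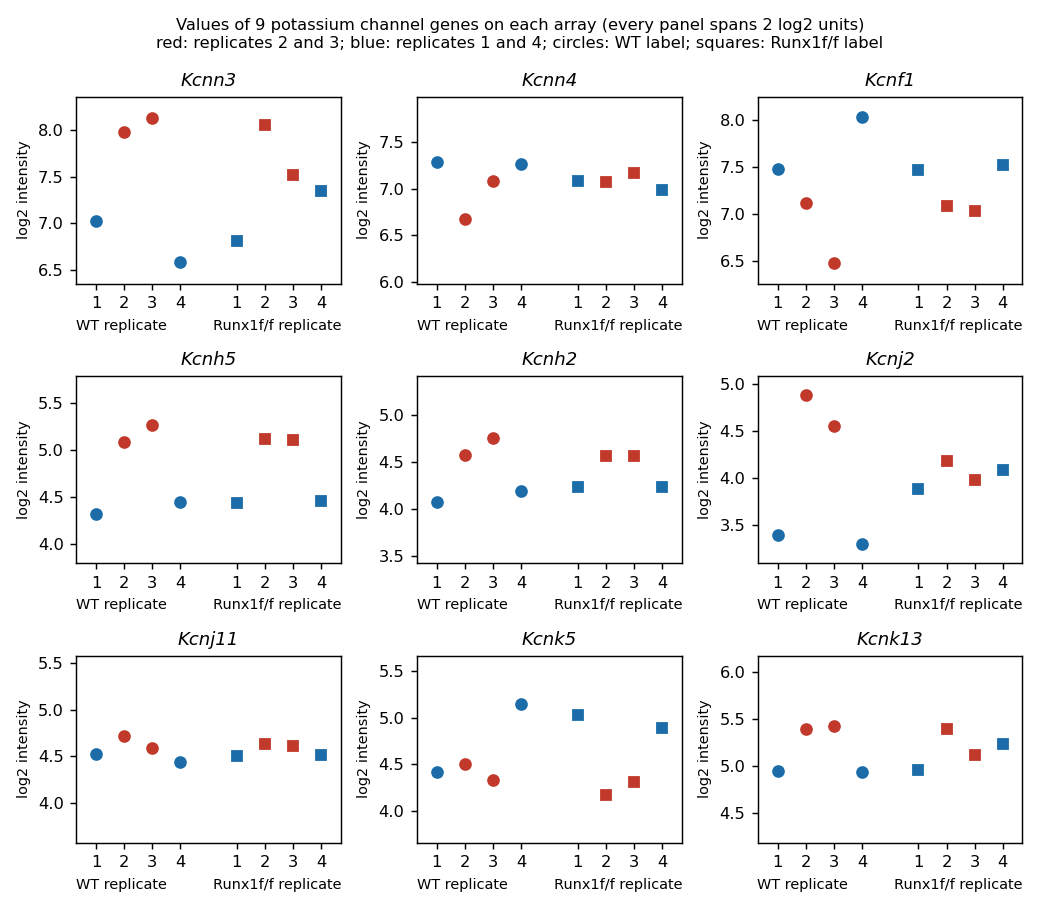
Log2 intensity of 9 potassium channel genes on each array, with replicates 1 to 4 of the WT label as circles and of the Runx1f/f label as squares, replicates 2 and 3 in red and 1 and 4 in blue. The colours part completely for Kcnn3, Kcnf1, Kcnh5, Kcnh2 and Kcnj11, and Kcnj2 parts widely among WT arrays but not among Runx1f/f arrays.

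Of the 15 inward rectifiers, 0 were counted, but Kcnj2 had the widest range of all 87 genes. It had values of 3.39, 4.89, 4.56 and 3.29 on arrays WT 1 to 4, and of 3.89, 4.18, 3.98 and 4.08 on arrays Runx1f/f 1 to 4. WT 2 and WT 3 were high and WT 1 and WT 4 low, while the Runx1f/f arrays lay in between with their sides overlapping. The mean difference of 0.74 was past 1.5-fold, but Runx1f/f 4 lay above Runx1f/f 3. Within the WT columns the difference was 1.38, or 2.61-fold, whereas Runx1f/f 2 minus 1 gave 0.29 and Runx1f/f 3 minus 4 gave -0.10. Without Runx1f/f 3 or Runx1f/f 4, Kcnj2 was counted, at 0.88. Whether the WT and Runx1f/f differences are unequal was not tested. In 7 genes, beside 8.31% of all genes, the sides lay apart in opposite directions under the 2 labels, each by less than 1.5-fold.

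Kcnj16, the neighbour of Kcnj2 in the RefSeq gene order, differed by 0.02. Kcnj12, a close relative of Kcnj2 in muscle, differed by 0.22 without overlap. Kcnj11 and Kcnj8 encode the pores of ATP-sensitive channels. Kcnj11 was at 4.638 ± 0.054 and 4.496 ± 0.040 (SD, n = 4), without overlap but only 1.10-fold apart, and Kcnj8 ran from 3.46 to 3.65.

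The two-pore channels carry background potassium current, and 0 of 14 were counted. Kcnk5, an acid-sensitive member, had values of 4.42, 4.51, 4.33 and 5.15 on arrays WT 1 to 4, and of 5.03, 4.18, 4.31 and 4.89 on arrays Runx1f/f 1 to 4. Replicates 1 and 4 were mostly higher, with WT 1 as the exception, and the difference of -0.54 lay just short of 1.5-fold. Without WT 1 it was -0.69 and without WT 2 it was -0.60, and Kcnk5 was then counted as lower. Kcnk13 was the only two-pore gene above 5, at 5.33 ± 0.15 and 5.02 ± 0.15 (SD, n = 4), with Runx1f/f 4 above Runx1f/f 3. Kcnk2, a stretch-sensitive channel, ran from 3.50 to 3.71.

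Auxiliary subunits alter gating or trafficking of the pore-forming proteins, and 0 of 15 were counted. Their differences ran from -0.08 to 0.11 and their means from 3.09 to 4.29. Kcnip3, a calcium-binding partner of Kcnd channels, had the widest range in this role, 0.47, with sides that overlapped. Kcne3 ran from 4.15 to 4.41 and differed by 0.11. The auxiliary subunits of the large-conductance channel, the Kcnmb group, had means of 3.09 to 3.87.

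Dropping the size threshold, 11 of 87 genes had all arrays of replicates 2 and 3 above the rest (9.87% of all genes) and 5 had them below (10.5% of all genes). Apart from Kcnn3, Kcnh5, Kcnh2 and Kcnf1, these were small differences, such as 0.22 for Kcnj12, 0.14 for Kcnj11 and -0.10 for Kcnj13. Direction agreed across the WT columns, Runx1f/f 2 minus 1 and Runx1f/f 3 minus 4 upward in 14 genes (16.8% of all genes) and downward in 17 (19.6% of all genes). None of these 4 shares of the 87 genes, 12.6%, 5.75%, 16.1% and 19.5%, was set against the background by a test. Each sample has a source number, and samples with near numbers were grouped here into runs. These runs are not a batch named in the labels, and what the numbers stand for is not known here. Within the source number run 139 to 142, which holds replicates 1 and 2 of both labels, Kcnn3, Kcnh5 and Kcnj2 were counted when replicate 2 was set against 1, at 1.10, 0.73 and 0.89. Kcnf1 was not, with -0.37. With 2 arrays a side, the sides lie apart more easily. No share over all genes was taken here, so nothing is read from this count. Replicates 3 and 4 have source numbers in separate groups, 160 to 161 and 181 and 189, so for them this grouping and the side cannot be told apart.

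Promoter sequence is shown for the 3 counted genes, for Kcnj2, which had the widest range, and for Kcnn4, the bright gene that did not follow Kcnn3. Each is the 250 bases before the gene start in RefSeq (GRCm38.p6), 5′ to 3′ on the gene's strand, in lower case. Capitals mark letters searched for because the series title names Runx1, MyoD and c-Jun. These were TGTGGT or its reverse complement ACCACA for Runx factors, CANNTG for the E-box, including its form CAGCTG, and TGANTCA for AP-1. The last 3 read alike on both strands. CANNTG is the general E-box string and is not particular to MyoD. Kcnn3 lies at chr3:89519914-89520163 (plus strand), Kcnh5 at chr12:75177333-75177582 (minus), Kcnf1 at chr12:17176889-17177138 (minus), Kcnj2 at chr11:111065914-111066163 (plus) and Kcnn4 at chr7:24370013-24370262 (plus).
Kcnn3: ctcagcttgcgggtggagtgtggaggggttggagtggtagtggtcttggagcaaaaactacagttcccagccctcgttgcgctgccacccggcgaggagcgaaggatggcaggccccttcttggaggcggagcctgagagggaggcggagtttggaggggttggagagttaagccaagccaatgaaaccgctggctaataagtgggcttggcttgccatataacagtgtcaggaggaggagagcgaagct
Kcnh5: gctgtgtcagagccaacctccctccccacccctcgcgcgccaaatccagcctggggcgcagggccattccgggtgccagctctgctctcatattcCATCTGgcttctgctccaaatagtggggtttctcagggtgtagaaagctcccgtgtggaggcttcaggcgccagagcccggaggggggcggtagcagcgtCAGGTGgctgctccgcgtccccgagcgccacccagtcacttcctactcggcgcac
Kcnf1: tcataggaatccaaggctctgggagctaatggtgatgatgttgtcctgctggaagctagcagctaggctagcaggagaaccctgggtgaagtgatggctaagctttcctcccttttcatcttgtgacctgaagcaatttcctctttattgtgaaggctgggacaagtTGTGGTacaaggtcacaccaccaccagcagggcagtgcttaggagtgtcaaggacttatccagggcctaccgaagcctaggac
Kcnj2: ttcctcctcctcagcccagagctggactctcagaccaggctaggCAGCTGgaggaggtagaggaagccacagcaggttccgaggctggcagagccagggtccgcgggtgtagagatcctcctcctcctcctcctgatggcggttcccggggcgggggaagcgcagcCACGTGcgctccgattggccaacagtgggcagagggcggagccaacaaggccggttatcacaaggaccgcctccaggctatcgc
Kcnn4: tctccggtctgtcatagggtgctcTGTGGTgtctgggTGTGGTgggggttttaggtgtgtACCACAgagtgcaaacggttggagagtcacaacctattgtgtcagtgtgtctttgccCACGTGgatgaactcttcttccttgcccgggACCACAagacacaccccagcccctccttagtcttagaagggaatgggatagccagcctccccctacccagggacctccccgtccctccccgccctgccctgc

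The Kcnn3 window held 0 of these letter strings. Kcnh5 held 2 E-box strings, Kcnf1 held 1 Runx string, and Kcnj2 held 2 E-box strings, of which 1 was CAGCTG. Kcnn4 held 4 Runx strings and 1 E-box string, the most Runx strings of the 5. RefSeq gave promoter windows for 67 of the 87 genes, 92 windows in all. A Runx string stood in 10 of these 92 (10.9%) and in 14% of all 32851 windows of this length, and an E-box string in 66.3% and 66.2%. The form CAGCTG stood in 22.8% of the 92 and 13% of all windows, and the AP-1 string in 4.35% and 6.75%. A match is a string of letters and not a measured binding site.

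Partner and pathway genes were read from a list of 43, of which 38 were measured under a single symbol. Of the 38, 4 were higher and 2 lower by the same count (10.5% and 5.26%), beside 2.16% and 0.727% of all genes. In either direction, 2.88% of all genes were counted, and 5.37% of those with a mean above 5. The higher ones include Mef2c and Myog, whose difference was known from earlier results of these data. Without them, 2 of 36 were higher and 2 lower (5.56% each). Abcc9, the regulatory subunit of muscle ATP-sensitive channels, had values of 5.79, 6.19, 6.14 and 5.31 on arrays WT 1 to 4, and of 5.30, 6.42, 6.04 and 5.68 on arrays Runx1f/f 1 to 4. The sides did not overlap, and their means were 6.20 ± 0.16 and 5.52 ± 0.25 (SD, n = 4), a 1.60-fold difference. Its pore-forming neighbour in the RefSeq gene order, Kcnj8, differed by -0.06. The other such pair, Kcnj11 and Abcc8, differed by 0.14 and 0.09.

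Sodium pump subunits restore the potassium gradient, and 2 of the 3 measured beta subunits differed in opposite directions. Atp1b1 was at 7.25 ± 0.26 in replicates 2 and 3 and 8.05 ± 0.28 in replicates 1 and 4 (SD, n = 4), and so 1.74-fold higher in the latter. Its difference was -0.37 in the WT columns, short of 1.5-fold, and -1.23 over the Runx1f/f columns. Atp1b2, the beta subunit known from glia and muscle, was at 5.20 ± 0.32 and 4.37 ± 0.33 (SD, n = 4), 1.79-fold higher in replicates 2 and 3. The Atp1b2 difference was 1.35 within the WT columns, 0.04 between Runx1f/f 2 and 1 and 0.61 between Runx1f/f 3 and 4, or 0.32 over the Runx1f/f columns, short of 1.5-fold. The third, Atp1b3, differed by -0.04. The cotransporter Slc12a2 differed by 0.52 and Dpp6, a partner of Kcnd channels, by 0.53, both without overlap but short of 1.5-fold.

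In the calcium path, Orai2, a pore subunit of store-operated calcium entry, was at 6.92 ± 0.38 in replicates 2 and 3 and 7.85 ± 0.39 in replicates 1 and 4 (SD, n = 4). This was 1.91-fold higher in replicates 1 and 4, while Orai1 and Orai3 differed by 0.22 and -0.09. The Orai2 difference was -1.59 within the WT columns and -0.39 and -0.17 within the Runx1f/f column pairs. Mef2c and Myog, muscle transcription factors downstream of this path, were 2.45-fold and 1.69-fold higher in replicates 2 and 3. In the WT columns, Runx1f/f 2 minus 1 and Runx1f/f 3 minus 4, Mef2c differed by 0.98, 2.20 and 1.00. Myog differed by 0.78, 1.20 and 0.28, the last short of 1.5-fold. The T-type channels Cacna1h, Cacna1g and Cacna1i averaged 3.56, 3.56 and 3.37.

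**Figure D4:**
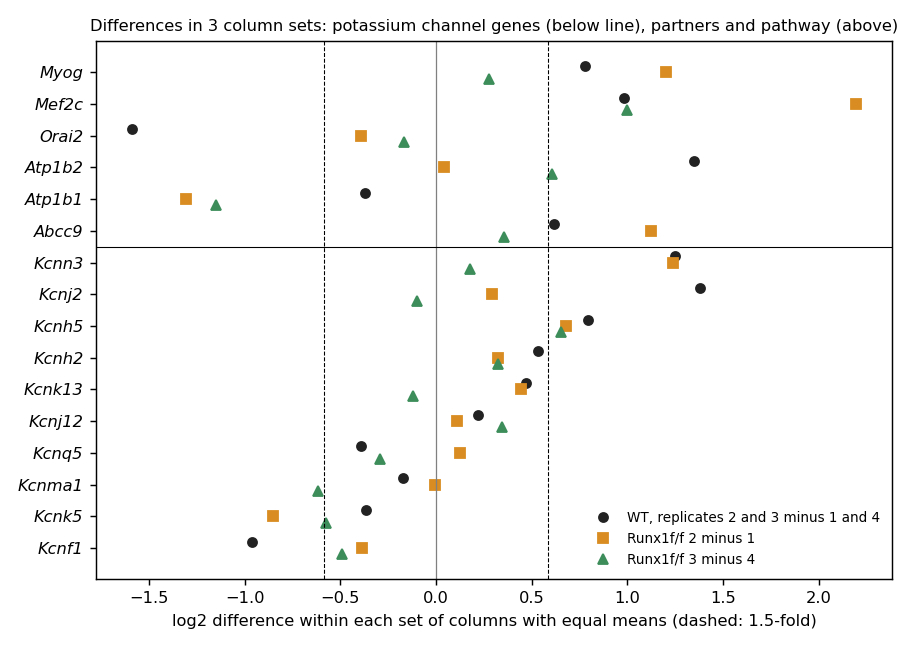
Difference in log2 intensity within each of the 3 column sets with equal means, for potassium channel genes past 0.2 in either direction (below the line) and counted partner and pathway genes (above it), with dashed lines at 1.5-fold. Kcnh5 lies between 0.65 and 0.80 in all 3 sets, Kcnh2 at 0.54 in the WT columns and 0.32 in both others, Kcnn3 has 2 large and 1 small, and Kcnj2 is carried by the WT columns.

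Some markers of cell state and of other cells differed along the same split. Myf5, a marker of undifferentiated myoblasts, was lower (7.66 against 8.55) and Myog was higher. Below 1.5-fold but without overlap, Des and Cdh15 differed by 0.18 and 0.25 and Myod1 by -0.26. The mean of the 8 myoblast markers was 9.98 to 10.03 in replicates 2 and 3 and 9.98 to 10.04 in replicates 1 and 4. Higher and lower markers offset each other in this mean, so it does not show a constant myoblast state. Of the 6 pericyte and smooth muscle markers, Cspg4 and Pdgfrb were counted as higher and 0 as lower, with list means of 5.88 to 6.15 and 5.75 to 5.96. Cspg4 and Pdgfrb were dim, with means of 4.66 and 3.79, and differed by 0.72 and 0.59, Pdgfrb only just past 1.5-fold. The others in that list were not counted, and all but Rgs5 lay near no difference. Rgs5 and Acta2 averaged 8.51 and 11.70 and differed by -0.49 and -0.03. The sides overlapped for Rgs5, which gave -0.84 in the WT columns, 0.54 for Runx1f/f 2 minus 1 and -0.81 for Runx1f/f 3 minus 4. Cnn1 and Myh11 averaged 3.57 and 3.47 and differed by -0.03 each. No fibroblast, leukocyte, endothelial or Schwann cell and neural marker was counted, of 5, 6, 5 and 5 measured. Fibroblast list means ran from 4.80 to 4.92 and from 4.71 to 4.90, with Pdgfra and Dcn at 3.492 and 3.503 and Col3a1 at 8.90. The part of these markers in the potassium channel differences was not tested. In bulk RNA, fewer cells of a type and less RNA per cell cannot be told apart.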

How the data were processed

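RNA (200 ng per array) was measured on Affymetrix MoGene 1.0 ST arrays. The authors deposited log2 intensities per probe set, made with RMA and Partek per the submitters' processing notes, which give no versions. Columns were assigned by the accession in their header. Gene symbols came from the platform annotation, and all 87 symbols were found in RefSeq (GRCm38.p6), which lists 5 further symbols of this form. Dim probe sets were kept, and scanner files and detection p-values were not used here.

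Genotypes were compared over all 19938 genes with limma 3.58.1 in R 4.3.3 (lmFit, eBayes, genotype as the only term, Benjamini-Hochberg). The code was first checked on simulated arrays. Those were independent, without the mirrored values and equal column means of the deposited data, so that check does not cover this comparison. Same-numbered replicates 1 to 4 deviated together from their genotype means, with correlations of 0.393, 0.464, 0.601 and 0.573, which are not independent because of the equal column means, and the labels give no pairing. Replicates 2 and 3 were set against 1 and 4 as a description. The members, lists and split were chosen with earlier results of these data known. Genes named were those counted, those with a mean of 7 or more, the widest range in each role, those next to the threshold and 10 known from muscle, and others were named after their values were seen. Alternatives were another scaling, mean of probe sets, a dim filter, blocks, other thresholds, subsets and each array left out.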

Additional observations from a re-analysis of the deposited data

Results flagged for a closer look

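In 7 of the 87 potassium channel genes (8.05%, beside 8.31% of all genes), replicates 2 and 3 lay wholly on one side of replicates 1 and 4 in the WT columns and wholly on the other side in the Runx1f/f columns. The difference between the labels was not tested. The WT differences were positive in Kcnip3 (0.31), Kcnk3 (0.23), Kcnh4 (0.11) and Kcnk10 (0.0929) and negative in Kcng1 (-0.23), Kcnip2 (-0.0582) and Kcnj4 (-0.0315). The Runx1f/f means in the same order were -0.09, -0.18, -0.17, -0.13, 0.17, 0.05 and 0.04. Each of these differences was under 1.5-fold.

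A search for single arrays far from the rest of their label marked 0 of 32 groups of 4 values over the 16 genes named by rule, where chance marks about 5% of independent groups. The mirrored Runx1f/f values cannot be marked.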

How the results depend on the processing

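With the arrays as deposited, 2 potassium channel genes were higher and 1 lower in replicates 2 and 3, and 6 partner and pathway genes were past 1.5-fold. At 2-fold these counts were 0, 0 and 1. Restricted to genes with a mean above 5, the count of higher genes was 1, since Kcnh5 lies below 5. Within the source number run 139 to 142, the count of lower genes was 0. With 1 array left out, the higher count ran from 2 to 3 (3 without Runx1f/f 3 or Runx1f/f 4, which adds Kcnj2), the lower count from 0 (without WT 3 or WT 4) to 2 (without WT 1 or WT 2), and the partner count from 6 to 7. Kcnn3 and Kcnh5 were counted with each single array left out. Because of the mirrored values, leaving out Runx1f/f 1 or Runx1f/f 2 gives the same difference, and so does leaving out Runx1f/f 3 or Runx1f/f 4. These are therefore not all separate checks. The cause of the changes was not tested. Each other alternative run left these counts within 1.5 times, but not always with the same genes. In the Runx1f/f columns alone the 1 lower gene was Kcnk5 (-0.71) and not Kcnf1 (-0.44), and in the WT columns alone Kcnj2 was added to the higher ones. Such subsets, like the run 139 to 142, have 2 arrays a side, and no share over all genes was taken for them. Differences of the 11 genes followed singly reversed in 0 of 161 alternatives and moved by more than the spread between arrays in 9. The 161 include the repeats from mirrored arrays.

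Between the labelled genotypes, 0 potassium channel genes were called under each alternative run, also with the replicate number as a block (0) and with each array left out (0 to 0). Equal column means fix this where all arrays are kept as deposited, so it says nothing about robustness. Leaving out an array breaks them, and the difference then reflects that array. No limit from signal over background is given, since detection values were not analysed here.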
